A study of Mus musculus with 12 samples.

Results

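The 10 genes described here encode the core enzymes that turn arachidonic acid into eicosanoids, with 6 in the prostanoid branch (Ptgs1, Ptgs2, Hpgds, Tbxas1, Ptges and Hpgd) and 4 in the leukotriene branch (Alox5, Alox5ap, Lta4h and Ltc4s). The 10 genes were chosen by name, with earlier results of these data known. The gene-level table held 14847 genes with a single symbol. For 9 of the 10 it held 1 transcript cluster each. Ptgs1 had none with a single symbol there and was read as the median of its 18 exon-level probesets, so its level is on the scale of a different summary.

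RNA came from brain microglia, the resident macrophages of the brain, of mice aged 3 weeks. There were 3 samples labelled Lrrc33-/- (called KO-labelled) and 3 samples labelled Lrrc33+/+ (called WT), and the labels name no treatment and no further allele. Cells were gated as CD45low, CD11b+, CD39+ and Ter119- and each sample was hybridised to its own Affymetrix mouse exon array. With 3 arrays per group the precision is limited. Neither the structure of the Lrrc33 allele nor the number of mice per sample is given in the sources used here. The p-values therefore set a difference against the spread between these samples, moderated by that of all features. All values are RMA signals on the log2 scale, and a difference is KO-labelled minus WT.

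Arachidonic acid is freed from membrane lipids by phospholipases and, in brain, from the endocannabinoid 2-arachidonoylglycerol by monoacylglycerol lipase. Cyclooxygenases convert it to prostaglandin H2, from which terminal synthases make prostaglandin D2, prostaglandin E2 or thromboxane. 5-Lipoxygenase, helped by its activating protein, makes leukotriene A4, which is either hydrolysed to leukotriene B4 or joined to glutathione as leukotriene C4. Microglia are known to carry cyclooxygenase 1 and the haematopoietic prostaglandin D synthase.

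Nrros, the current symbol of Lrrc33, had signals of 9.86, 9.89 and 9.83 in KO-labelled samples and 9.94, 9.88 and 9.60 in WT (difference 0.05, SE 0.09; limma, Benjamini-Hochberg adjusted p = 0.759), and 0 of its 8 exon-level probesets passed limma's test (lowest adjusted p = 0.31), with 0 at an unadjusted p under 0.05. Nrros signals thus did not set the groups apart, and the reason was not tested. Where its probes lie relative to the altered part of the gene is not given. Every direction given here therefore rests on the labels. WT replicate 3 stood apart by a Y-linked gene, with Eif2s3y at 7.72 against 3.06 to 3.15 in the other 5 arrays. Of 11 measured microglial markers 9 fell in KO-labelled samples and 0 rose, beside 14% of all clusters called lower and 14.4% called higher. The widest falls were those of Sall1, a transcription factor of microglial identity, which averaged 5.50 in KO-labelled samples and 11.28 in WT (difference -5.79), and of Tmem119 (-3.55), while Csf1r was at 12.92 in KO-labelled samples and 13.16 in WT. Of 10 measured markers of border-associated macrophages, which line brain vessels and meninges, 9 rose, and their summed signal was 15.04 to 15.08 in KO-labelled samples and 12.88 to 13.06 in WT. Whether that shift has a part in the enzyme results was not tested. In bulk samples fewer cells of a type and less RNA per cell cannot be told apart.

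The prostanoid and the leukotriene branch each held members that fell, members that rose and members that did not pass the test. In KO-labelled samples Ptgs1, Hpgds, Alox5ap and Ltc4s fell, Hpgd and Lta4h rose, and Ptgs2, Tbxas1, Ptges and Alox5 did not pass. Of the 9 members read at the gene level, 5 passed limma's test at an adjusted p of 0.05, against 28.4% of all 16755 clusters. The 3 lower calls stand beside 14% of all clusters called lower, and the 2 higher calls beside 14.4% called higher. Groups did not overlap for 5 of the 9, against 42.3% of all clusters.

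**Figure D1:**
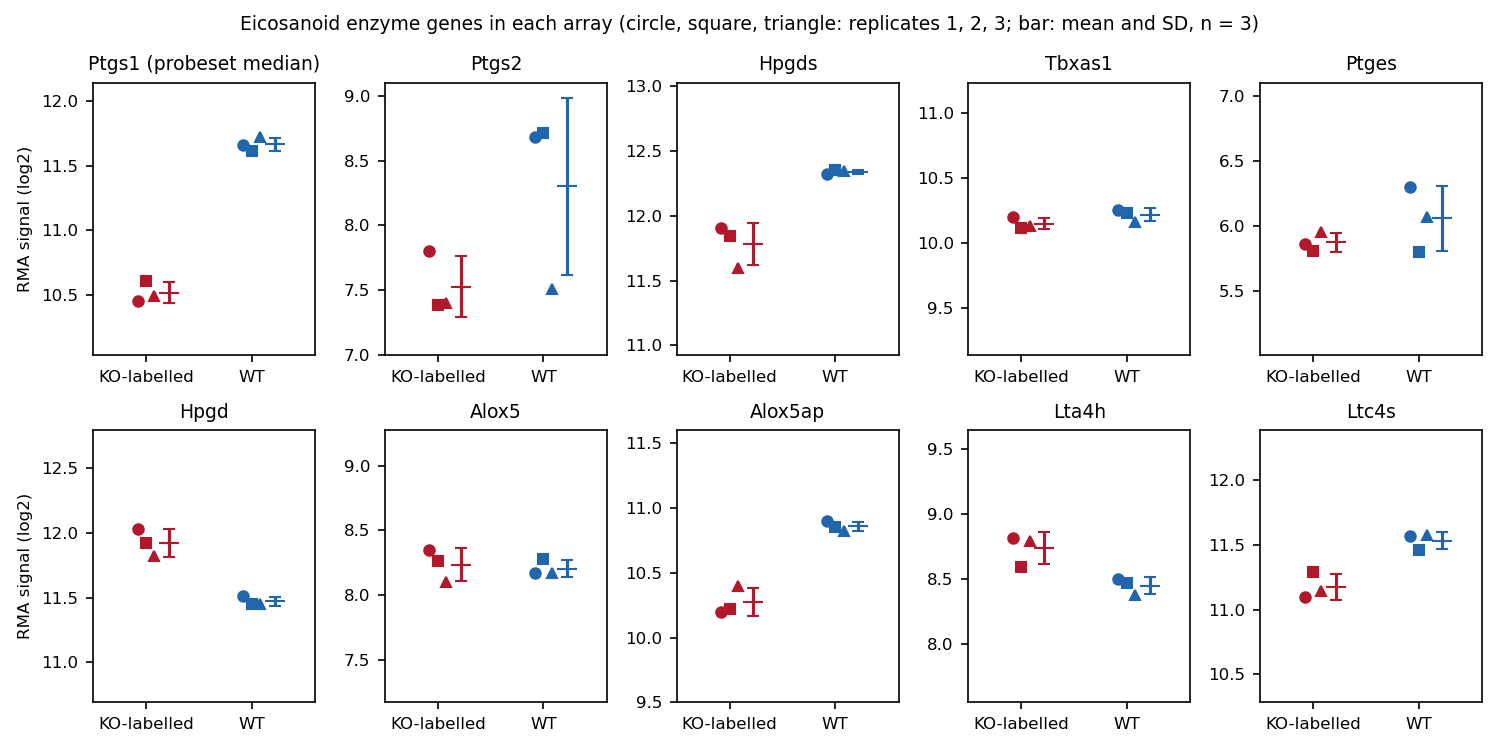
Signal (RMA, log2) of the 10 enzyme genes in each array, with KO-labelled samples in red on the left and WT in blue on the right of each panel; circles, squares and triangles are replicates 1, 2 and 3, and bars give the mean and SD (n = 3). Every panel spans the same range of log2 units, so distances can be compared, but levels of different genes cannot. Ptgs1 shows the widest gap between groups, and WT replicate 3 lies among the KO-labelled samples for Ptgs2.

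Ptgs1 encodes cyclooxygenase 1, the constitutive enzyme that commits arachidonic acid to prostaglandin H2. Its probeset median was 10.46, 10.61 and 10.49 in the KO-labelled samples, against 11.66, 11.61 and 11.72 in WT. All KO-labelled arrays lay below all WT arrays. The difference was -1.14 (SE 0.09), a level 2.21-fold lower or 45.2% of that in WT (limma over 22184 gene medians, Benjamini-Hochberg adjusted p = 0.00015, where 7.53% of genes were called lower). It was the widest difference among the 10 genes.

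Ptgs2 encodes cyclooxygenase 2, the inducible counterpart, and it varied more between WT arrays than any other member. Its signal was 7.80, 7.39 and 7.40 in KO-labelled samples, against 8.68, 8.71 and 7.51 in WT. WT replicate 3 fell within the range of the KO-labelled samples, so the groups overlapped. By limma the gap of -0.77 (SE 0.32) missed the threshold (Benjamini-Hochberg adjusted p = 0.124). Without WT replicate 3 it was -1.17 with an adjusted p of 0.0017, and that array alone decided the call.

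Hpgds encodes the haematopoietic synthase that makes prostaglandin D2 from prostaglandin H2. It had signals of 11.91, 11.84 and 11.60 in KO-labelled samples and 12.32, 12.35 and 12.35 in WT. All KO-labelled arrays were lower than all WT arrays, with an SD of 0.16 in KO-labelled samples and 0.02 in WT (n = 3 each). The fall was to 67.9% of the WT level (difference -0.56, SE 0.09; limma, Benjamini-Hochberg adjusted p = 0.0026).

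Tbxas1 and Ptges, the other terminal synthases of the branch, did not pass the test. Tbxas1, which encodes thromboxane A synthase, had signals of 10.20, 10.11 and 10.13 in KO-labelled samples and 10.25, 10.24 and 10.16 in WT. Its difference was -0.07, with a 95% interval from -0.20 to 0.06 (limma, Benjamini-Hochberg adjusted p = 0.434). Ptges encodes microsomal prostaglandin E synthase 1, the inducible maker of prostaglandin E2. It was dim, at 5.86, 5.81 and 5.95 in KO-labelled samples and 6.30, 5.80 and 6.07 in WT, where array medians over all clusters were 6.70 to 6.76. Its difference was -0.18 (SE 0.12; limma, Benjamini-Hochberg adjusted p = 0.343) and took the opposite sign, 0.23, when summarised from its exon-level probesets. RMA pulls dim signals towards a common floor, which limits what can be seen for Ptges.

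Hpgd was the member of this branch that rose. It encodes 15-hydroxyprostaglandin dehydrogenase, which inactivates prostaglandins and so stands at the end of the route. Signals were 12.03, 11.92 and 11.82 in KO-labelled samples, against 11.51, 11.45 and 11.45 in WT. The groups did not overlap, and the difference of 0.45 (SE 0.07) corresponds to a 1.37-fold higher level under the KO label (limma, Benjamini-Hochberg adjusted p = 0.0023). Within arrays the log2 ratio of Hpgd to Hpgds was shifted upward by 1.01 in KO-labelled samples.

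Alox5, which encodes 5-lipoxygenase itself, showed no detectable difference. It had signals of 8.35, 8.26 and 8.10 in KO-labelled samples and 8.17, 8.28 and 8.17 in WT. The groups overlapped, with a difference of 0.03 and a 95% interval from -0.15 to 0.21 (limma, Benjamini-Hochberg adjusted p = 0.831). Without KO replicate 1 the sign turned, to -0.026.

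Alox5ap, in contrast, fell in KO-labelled samples. Its product, the 5-lipoxygenase activating protein, is the membrane protein that presents arachidonic acid to 5-lipoxygenase. Signals were 10.20, 10.22 and 10.40 in KO-labelled samples, against 10.90, 10.85 and 10.83 in WT. No KO-labelled array reached a WT array, and the level was 66.6% of that in WT (difference -0.59, SE 0.07; limma, Benjamini-Hochberg adjusted p = 0.00071).

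Downstream of leukotriene A4 the competing enzymes moved in opposite directions. Ltc4s, which encodes leukotriene C4 synthase, the entry to the cysteinyl leukotrienes, had signals of 11.10, 11.29 and 11.14 in KO-labelled samples and 11.57, 11.46 and 11.57 in WT. It fell to 78.1% of the WT level, with no overlap (difference -0.36, SE 0.07; limma, Benjamini-Hochberg adjusted p = 0.0082). Lta4h, which encodes the hydrolase that yields leukotriene B4, had signals of 8.82, 8.60 and 8.80 in KO-labelled samples and 8.50, 8.47 and 8.38 in WT. It rose 1.22-fold, also without overlap (difference 0.29, SE 0.08; limma, Benjamini-Hochberg adjusted p = 0.028). This call was the least firm of the 6, since it was lost without KO replicate 1 or 3 (adjusted p = 0.094 and 0.086), without WT replicate 1, 2 or 3 (0.055, 0.070 and 0.087), with the replicate block (0.053) and when genes were summarised from their probesets (0.069).

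**Figure D2:**
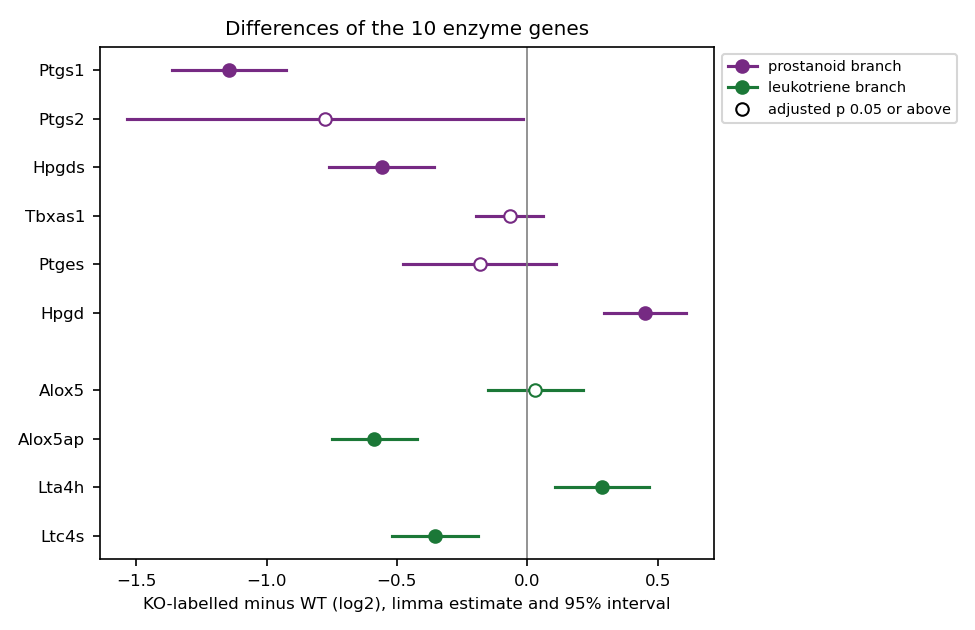
Difference between KO-labelled and WT samples (log2) for each gene, with limma's estimate as a point and its 95% interval as a line (3 arrays per group), for the prostanoid branch in purple above and the leukotriene branch in green; open points have an adjusted p of 0.05 or above. Ptgs1 lies farthest below 0 at -1.14, and Hpgd at 0.45 and Lta4h at 0.29 are the only filled points above 0.

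Pairs of members were compared as log2 ratios within each array, which shows unequal change and says nothing of levels. The 4 pairs were chosen after their values were seen, so their separation is a description and no support. Relative to Ltc4s, Lta4h was shifted by 0.64 in KO-labelled samples, and relative to Hpgds, Tbxas1 was shifted by 0.49. Relative to Alox5, Alox5ap was shifted by -0.62. In these 3 pairs, and in Hpgd relative to Hpgds, the groups did not overlap, and the share over other pairs was not computed. The exact two-sided permutation test gave p = 0.1 for each, before and after adjustment over the 4 pairs, which is the smallest value that 3 arrays against 3 allow.

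Seen as whole branches, the median difference was -0.37 over the 6 prostanoid genes and -0.16 over the 4 leukotriene genes, against -0.02 over all clusters. The prostanoid values include Hpgd, which rose and whose product inactivates prostaglandins, so they do not describe synthesis genes alone. As means over members relative to WT, KO-labelled replicates 1, 2 and 3 stood at -0.30, -0.40 and -0.44 in the prostanoid branch and at -0.15, -0.17 and -0.15 in the leukotriene branch. WT replicates 1, 2 and 3 stood at 0.11, 0.02 and -0.13 in the prostanoid branch and at 0.02, 0.00 and -0.02 in the leukotriene branch. The wider spread in the prostanoid branch included that of Ptgs2. A difference between the branches was not tested, since each is a set of a few named genes.

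The promoters of Ptgs1, Hpgds and Ltc4s, which fell, and of Hpgd, which rose, are shown for comparison of members that moved together and apart. RefSeq sequences from 250 bases before to 50 after each gene's start (assembly GRCm38.p6) were matched by symbol for 9 of the 10 genes, all but Alox5ap. The windows are chr2:36230176-36230475 (plus strand) for Ptgs1, chr6:65144681-65144980 (minus strand) for Hpgds, chr11:50238483-50238782 (minus strand) for Ltc4s and chr8:56294302-56294601 (plus strand) for Hpgd. Capitals mark every match, on either strand, of 7 words searched. The Smad element was searched as CAGACA, the word of the myeloid factor PU.1 as GAGGAAGT and the cyclic AMP element CRE as TGACGTCA. The AP-1 element was searched as TGACTCA, and the E-box, a site of helix-loop-helix factors, as CACGTG. For the GC box the letters were GGGCGG, and the TATA box was taken in its plain form TATAAA.
Ptgs1: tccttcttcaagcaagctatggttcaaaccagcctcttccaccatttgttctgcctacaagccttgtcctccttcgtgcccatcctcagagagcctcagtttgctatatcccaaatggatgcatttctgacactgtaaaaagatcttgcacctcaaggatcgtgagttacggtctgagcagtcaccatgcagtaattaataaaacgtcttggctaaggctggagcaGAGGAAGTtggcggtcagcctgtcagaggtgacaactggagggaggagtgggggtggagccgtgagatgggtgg
Hpgds: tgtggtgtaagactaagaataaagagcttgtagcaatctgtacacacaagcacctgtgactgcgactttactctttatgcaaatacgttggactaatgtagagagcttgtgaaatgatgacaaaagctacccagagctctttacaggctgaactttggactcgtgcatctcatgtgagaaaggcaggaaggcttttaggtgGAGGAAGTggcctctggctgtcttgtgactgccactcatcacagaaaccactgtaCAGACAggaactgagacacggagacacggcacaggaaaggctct
Ltc4s: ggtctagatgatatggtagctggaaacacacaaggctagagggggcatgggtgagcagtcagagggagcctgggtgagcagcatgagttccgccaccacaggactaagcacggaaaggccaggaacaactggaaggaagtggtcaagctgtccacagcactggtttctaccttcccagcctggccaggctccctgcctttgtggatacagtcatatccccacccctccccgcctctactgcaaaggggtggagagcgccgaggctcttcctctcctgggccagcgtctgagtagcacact
Hpgd: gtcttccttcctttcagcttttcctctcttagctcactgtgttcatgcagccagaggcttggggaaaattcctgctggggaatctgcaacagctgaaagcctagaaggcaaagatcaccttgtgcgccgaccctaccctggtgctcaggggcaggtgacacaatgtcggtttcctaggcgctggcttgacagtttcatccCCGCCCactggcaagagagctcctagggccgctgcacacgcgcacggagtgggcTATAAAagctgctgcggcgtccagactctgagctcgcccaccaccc
GAGGAAGT, a word bound by the macrophage factor PU.1, stood at -24 to -17 from the start of Ptgs1 and at -49 to -42 in Hpgds, and in none of the other 7 windows. It occurs in 3.20% of all 32851 promoters. Hpgds also held CAGACA at 7 to 12, a word found in 21.0% of promoters, in Tbxas1 and in Lta4h as well. Ltc4s held none of the 7 words. Hpgd held the GC box at -50 to -45 (35.7% of promoters) and TATAAA at 5 to 10 (13.6%). Ptgs2 held the E-box CACGTG at 17 to 22 (7.15% of promoters) and a GC box. No window held the CRE or AP-1 word (1.79% and 5.202% of promoters). A match is a description of these letters, and no binding was measured.

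Exon-level probesets of the same 6 arrays, which are a second summary and no independent evidence, show how evenly each gene moved. All 18 probesets of Ptgs1 were lower in KO-labelled samples, with differences of -1.52 to -0.78, and 17 of them passed limma's test over 1236087 probesets (lowest Benjamini-Hochberg adjusted p = 0.0017), where 4.75% of all probesets were called, 2.59% higher and 2.16% lower. Of the 133 probesets of the other 9 genes 2 passed, 1 lower in Alox5ap (-0.76) and 1 higher in Lta4h (0.74).

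In 4 of the other 9 genes every probeset lay on the same side of 0. Probesets of the same gene are not independent, so this adds no support to the gene-level differences. Neither the share of such genes over the whole table nor that of unadjusted p-values was computed. All 9 probesets of Hpgds (median -0.60), all 9 of Ltc4s (median -0.37), all 10 of Hpgd (median 0.40) and all 26 of Lta4h (median 0.31) lay on the side of the gene-level difference, although no single probeset of Hpgds, Ltc4s or Hpgd passed limma's test after adjustment (8, 6 and 7 had an unadjusted p under 0.05). Alox5ap had 9 of 10 below 0 (median -0.51), and Ptgs2 had 15 of 16 below 0 (median -0.71). Tbxas1 was mixed, with 8 above and 15 below 0, and so was Ptges, with 5 above and 4 below. Alox5 had 18 of 21 above 0 with a median of only 0.05.

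**Figure D3:**
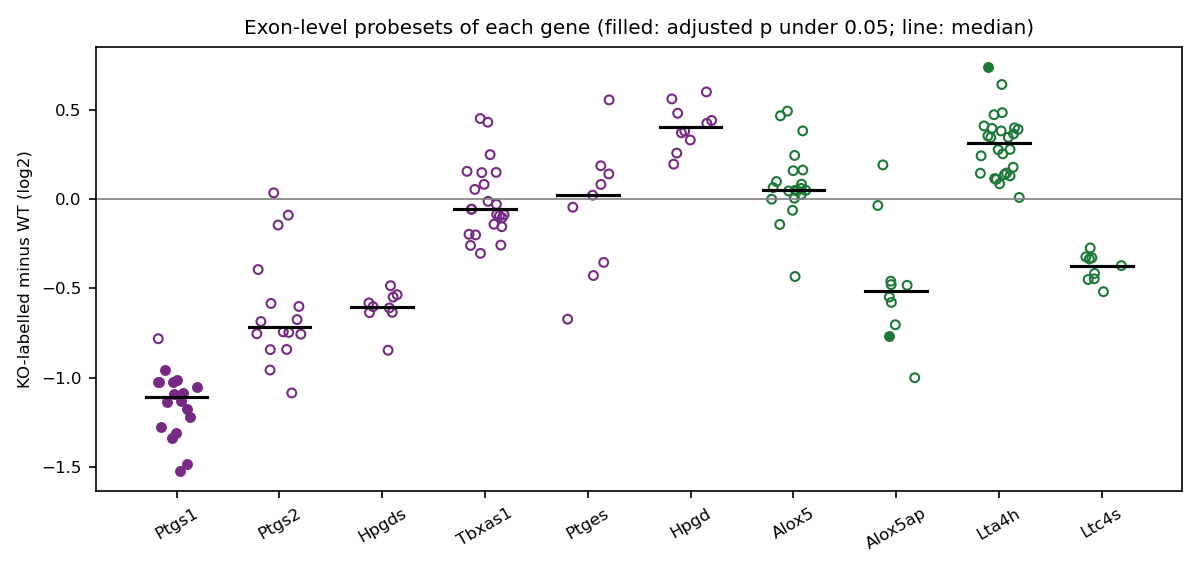
Difference between KO-labelled and WT samples (log2, vertical axis) for each exon-level probeset of the 10 genes, prostanoid genes in purple and leukotriene genes in green; filled points passed limma's test over all probesets and black lines are medians. The Ptgs1 probesets form a block between -1.52 and -0.78, while those of Tbxas1 and Ptges scatter on both sides of 0.

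limma's diffSplice, which asks whether probesets of a gene move unevenly, called Alox5ap, Ptges, Ptgs1 and Tbxas1 (F test, Benjamini-Hochberg adjusted p = 0.0051, 0.0077, 0.015 and 0.024). A count of 4 of 10 stands beside 31.6% of the 16692 genes tested. Ptgs1 was called although all its probesets were lower. For Ptges the test used 5 of its 9 probesets, since the others were too dim, and these 5 ran from -0.43 to 0.56. For Tbxas1 it used 22 of 23 probesets, which ran from -0.30 to 0.45. Dropping KO replicate 2 left 1 of the calls, and 2 were made on dropping KO replicate 1 or any single WT array.

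Among the other genes of the pathway the 4 widest differences were those of Pla2g7, Ptger4, Mgll and Cbr2. Of 69 listed genes 59 were measured in the gene-level table, and 8 rose, 11 fell and 40 did not pass (median difference -0.05). That stands beside 28.4% of all clusters called, 14.4% higher and 14% lower, and beside a median of -0.02 over all clusters, so the list as a whole was near the background. In the arachidonate release group 8 of 15 measured genes fell and 2 rose, with the same 14% and 14.4% of all clusters beside them. The group also holds genes of other roles, among them Lpcat3, Dagla, Daglb and Pla2g7, described below. These counts are therefore not counts of release enzymes.

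Mgll, which encodes monoacylglycerol lipase, had signals of 6.89, 6.99 and 6.93 in KO-labelled samples, against 9.06, 9.06 and 8.93 in WT. It fell to 23.7% of the WT level (difference -2.08, SE 0.06; limma, Benjamini-Hochberg adjusted p = 1.4e-06), a wider gap than that of any of the 10 enzymes. Both diacylglycerol lipase genes, whose products make 2-arachidonoylglycerol, fell with it. Dagla was at 6.96, 6.93 and 7.19 in KO-labelled samples and at 8.50, 8.65 and 8.35 in WT (difference -1.48, SE 0.10; limma, Benjamini-Hochberg adjusted p = 4.9e-05). Daglb was at 9.70, 9.68 and 9.73 in KO-labelled samples and at 10.76, 10.67 and 10.50 in WT (difference -0.94, SE 0.07; limma, Benjamini-Hochberg adjusted p = 0.000105). None of the 3 genes had overlapping groups.

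The classical release enzyme moved the same way. Pla2g4a, which encodes cytosolic phospholipase A2 alpha and is named after its values were seen, was at 8.57, 8.67 and 8.17 in KO-labelled samples and at 9.41, 9.44 and 9.22 in WT (difference -0.89, SE 0.14; limma, Benjamini-Hochberg adjusted p = 0.0027). Lpcat3, named for the same reason, encodes an acyltransferase that puts arachidonic acid into phospholipids, and it fell by 0.78 (SE 0.06; adjusted p = 8.6e-05, limma). Pla2g7 went the other way. It encodes the secreted phospholipase that degrades platelet-activating factor and oxidised phospholipids, and it averaged 11.92 ± 0.06 in KO-labelled samples and 9.15 ± 0.11 in WT (SD, n = 3 each), a 6.81-fold higher level (difference 2.77, SE 0.07; limma, Benjamini-Hochberg adjusted p = 9.1e-07).

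Other enzymes of prostanoid handling included 2 of 10 that rose and 0 that fell, beside 14.4% of all clusters called higher and 14% called lower. Cbr2, a carbonyl reductase that is itself among the markers of border-associated macrophages, averaged 12.05 ± 0.05 in KO-labelled samples and 9.98 ± 0.05 in WT (SD, n = 3 each), a difference of 2.06 (SE 0.05). Prxl2b, which encodes a prostaglandin F synthase, rose by 0.34 (SE 0.05), a call lost on the summary of its exon-level probesets (limma, Benjamini-Hochberg adjusted p = 0.15). Of 10 other lipoxygenase and epoxide genes only Cyp2j9, a cytochrome P450 gene, passed, with a difference of -0.66 (SE 0.15). That call was lost without KO replicate 1 (adjusted p = 0.054, limma).

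In leukotriene export and breakdown 3 of 8 measured genes rose and 0 fell (14.4% and 14% of all clusters), and only the call of Cyp4f18 held in all 12 alternative settings. Cyp4f18, which encodes an enzyme that oxidises leukotriene B4, was at 6.10, 6.14 and 6.18 in KO-labelled samples and at 5.21, 5.34 and 5.16 in WT (difference 0.90, SE 0.06; limma, Benjamini-Hochberg adjusted p = 5.6e-05). Its WT signals lay below the first quartile of all clusters (5.42), so the size of the difference is uncertain. Dpep2, a dipeptidase of leukotriene D4 breakdown, differed by 0.33 (SE 0.07) and Mgst3, a microsomal glutathione transferase, by 0.30 (SE 0.09). Dpep2 was dim too, averaging 5.77 in KO-labelled samples and 5.44 in WT. Dpep2 lost its call on the summary of its probesets (adjusted p = 0.193, limma), and Mgst3 in 7 of 12 alternative settings (highest adjusted p = 0.106).

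Of 13 measured receptors 1 rose and 2 fell, beside 14.4% of all clusters called higher and 14% called lower. Ptger4, the prostaglandin E2 receptor EP4, had signals of 9.86, 9.70 and 10.12 in KO-labelled samples, against 7.62, 7.75 and 7.36 in WT. It rose 4.98-fold with no overlap (difference 2.31, SE 0.14; limma, Benjamini-Hochberg adjusted p = 2.6e-05). Ptger3, the receptor EP3 for the same ligand, was at 5.24, 5.45 and 5.44 in KO-labelled samples and at 6.10, 6.24 and 5.99 in WT (difference -0.73, SE 0.09; limma, Benjamini-Hochberg adjusted p = 0.00083), and its difference was -1.88 on the summary of its exon-level probesets. Under the KO label Ptger3 was dim, near the first quartile of all clusters (5.42), so the size of its fall is uncertain. Ptgdr2, a receptor for prostaglandin D2, differed by -0.21 (SE 0.06; adjusted p = 0.047, limma), and 9 of 12 alternative settings lost this call. Of the 3 measured genes of 5-lipoxygenase partners and inducers 0 passed limma's test, and 2 had an unadjusted p under 0.05.

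**Figure D4:**
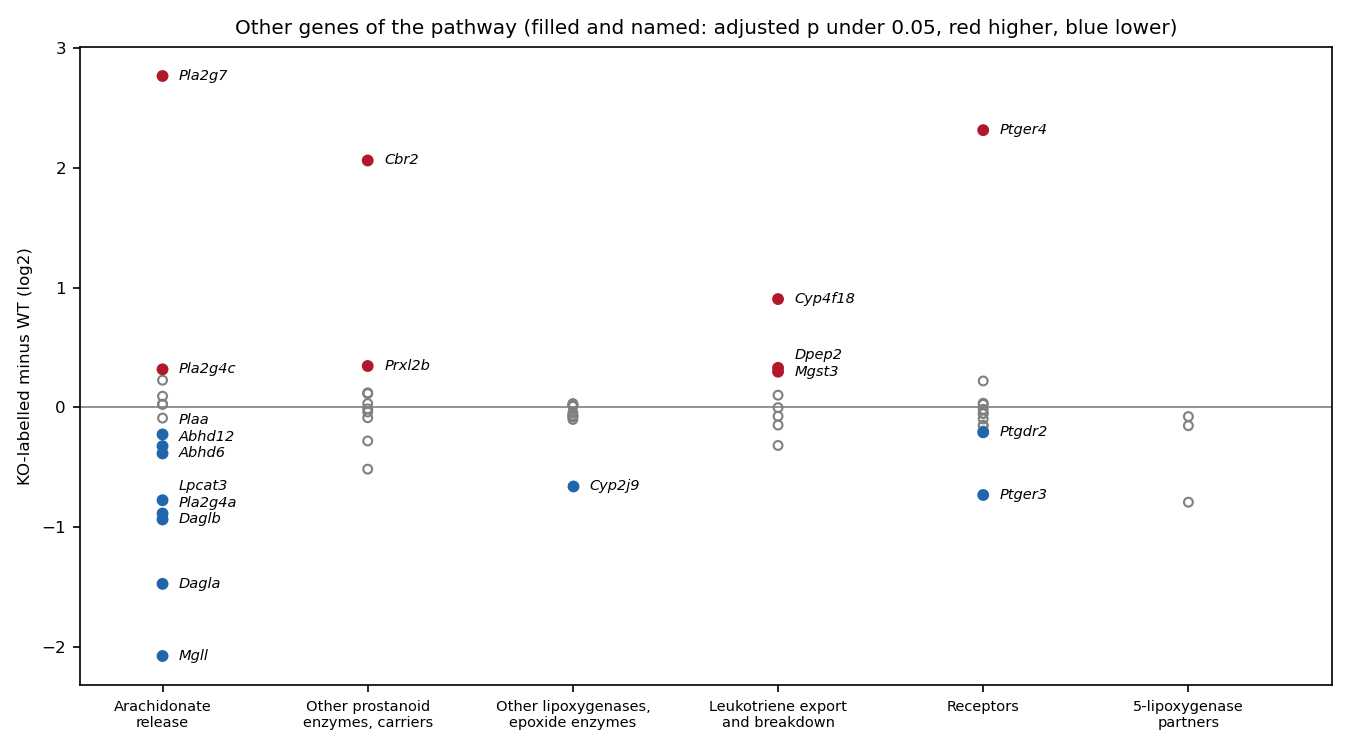
Difference between KO-labelled and WT samples (log2, vertical axis) for 59 other genes of the pathway in 6 groups by role; each point is a gene, and those past limma's test are filled and named, red where higher and blue where lower in KO-labelled samples. Most blue points stand in the arachidonate release group, which also holds genes of other roles, with Mgll lowest at -2.08. Pla2g7, Ptger4 and Cbr2 are the red points above 2.

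Several of these enzymes are also known from blood cells, so markers of those cells were read in the same arrays as the log2 of their summed linear signals. Counts of markers that rose or fell stand beside 14.4% of all clusters called higher and 14% called lower. Mast cells carry Hpgds and Ltc4s. Of 7 measured mast cell markers 0 rose and 1 fell, the histidine decarboxylase gene Hdc (-0.29), and their sum was 8.25 to 8.33 in KO-labelled samples and 8.37 to 8.46 in WT. The mast cell protease gene Cpa3 averaged 4.55 in KO-labelled samples and 4.90 in WT, and the receptor gene Ms4a2 3.71 in KO-labelled samples and 3.75 in WT. These 2 of the 7 lay below the first quartile of all clusters (5.42) in every array. The others were dim too, below the array medians of 6.70 to 6.76, so this sum and the Hdc call rest on dim signals. Platelets carry Ptgs1 and Tbxas1. Of 5 measured platelet and megakaryocyte markers 1 rose, the chemokine gene Ppbp (1.13), and their sum was 8.75 to 9.12 in KO-labelled samples and 8.50 to 8.60 in WT. The other 4 did not pass, and 2 of the 5 lay below the first quartile in every array. The part of this sum in the values of Ptgs1 and Tbxas1 was not tested.

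Neutrophils and monocytes carry Alox5, Alox5ap and Ptgs2. Of 12 neutrophil markers 0 rose and 1 fell, the growth factor receptor gene Csf3r (-1.20). Their sum was 10.75 to 11.57 in KO-labelled samples and 11.86 to 12.50 in WT. Csf3r was the brightest of them, averaging 9.86 in KO-labelled samples and 11.07 in WT, so it weighs most in this sum. The other 11 did not pass and had overlapping groups, although all differences of the list were negative (-1.38 to -0.21). Of 5 measured monocyte markers 0 rose and 4 fell, with a sum of 7.54 to 8.23 in KO-labelled samples and 8.41 to 8.64 in WT. Eosinophil and basophil markers, another known source of Ltc4s, included 2 of 6 that fell, Siglecf and Ccr3. The sum of this list was 8.23 to 8.42 in KO-labelled samples and 9.18 to 9.47 in WT. Siglecf was the brightest of the list, averaging 6.43 in KO-labelled samples and 8.43 in WT, so it weighs most in this sum. Ccr3 averaged 5.69 in KO-labelled samples and 6.63 in WT. The other 4 (Epx, Prg2, Mcpt8 and Prss34) did not pass and had overlapping groups, so the lower sum does not describe them. The part of these 3 sums in the lower signals of Alox5ap and Ltc4s was not tested. The gate took CD45low cells, which is meant to leave out CD45-high leukocytes of blood. RNA of its markers CD11b (Itgam), CD39 (Entpd1) and CD45 (Ptprc) differed by -1.81, -0.36 and 0.46 (limma, Benjamini-Hochberg adjusted p = 5.5e-06, 0.0079 and 0.0031). Whether the gate took the same cells in both groups was not tested. Endothelial markers summed to 8.27 to 8.51 in KO-labelled samples and 8.73 to 9.37 in WT, and 1 of 5 fell. Markers of astrocytes and oligodendrocytes summed to 8.91 to 9.05 in KO-labelled samples and 8.91 to 9.18 in WT, where 0 of 6 passed limma's test and 0 had an unadjusted p under 0.05.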

How the data were processed

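The series holds 6 arrays, 3 per genotype, each summarised at the gene level and at the exon level. The authors deposited log2 values made with RMA, a method of background correction, normalization and probe summary, per the submitters' processing notes, which also name oligo and limma for the exon level without a role. For RMA no version, and for the arrays no genome build, is given in the sources used here. All value columns could be matched to a sample by name.

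Symbols came from the platform annotation, updated through a RefSeq gene table (GRCm38.p6), and features with several symbols were not named. At the gene level 14996 clusters had 1 symbol, 1019 several and 740 none. Of the probesets 320193 carried a single symbol found in the gene table, and 898 more kept theirs as given. Differences were tested with limma 3.58.1 in R 4.3.3 (lmFit and eBayes, two-sided, genotype as the only term), with Benjamini-Hochberg adjustment across each whole table and a threshold of 0.05. The gene-level table served 9 members and the table of probeset medians served Ptgs1. Errors of differences are moderated standard errors. diffSplice used probesets with 1 symbol whose higher group mean reached the median of all probesets (5.82), with at least 3 per gene. The fits were tested on simulated data. Alternatives left out each array, added the replicate number as a block, repeated quantile normalization, used probeset medians for all genes, dropped dim features, changed the variance model or weighted arrays.

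The members and lists were chosen with earlier results of these data known. The rule for names took all 10 members and, in each role group of the wider list, up to 4 genes past the threshold with the largest difference.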

Additional observations from a re-analysis of the deposited data

How the results depend on the processing

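Ptgs1, Hpgds, Hpgd, Alox5ap and Ltc4s kept their direction and their call in all 12 alternative settings, with differences of -1.19 to -1.09, -0.64 to -0.47, 0.40 to 0.50, -0.69 to -0.55 and -0.43 to -0.32. For Ptgs1 the setting that uses exon-level probesets is the value as reported. Tbxas1, Ptges and Alox5 did not pass in any of them. Without single arrays the count of members called was 5 to 6, with 1 to 2 higher and 4 to 5 lower. The branch medians were -0.43 to -0.31 (prostanoid) and -0.20 to -0.12 (leukotriene), and Alox5 ran from -0.026 to 0.098. Member probesets called were 15 to 20, differential exon usage was called in 1 to 4 members, and calls in the wider pathway were 15 to 18. With gene values from exon-level probesets 1 member was called higher and Ptges differed by 0.23. A floor on dim probesets, which also lowered the number tested, raised the member probesets called to 37. Ptgs2 passed without WT replicate 3 only.

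Replicate numbers did not pair the samples: deviations of same-numbered arrays from their group means correlated at -0.029, -0.007 and 0.039 across clusters, and only number 3 had its best match under its own number. With the replicate block 5 members were called, 1 higher and 4 lower, and the lost call was that of Lta4h. No member had a second cluster with 1 symbol, so that alternative gave no value. The cause of the changed calls was not tested. 3 arrays per group and signals near the floor, as for Ptges, limit what can be detected.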
